A study of Mus musculus with 8 samples.

Results

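The genes described here are 9 used as identity markers of microglia: Tmem119, Selplg, Ecscr, Upk1b, Slc2a5, Fcrls, Crybb1, Olfml3 and Sparc. Not all of them set microglia apart from border macrophages in these data. The 9 were chosen by name from the 32285 genes of the deposited tables, and all 9 were measured and passed the filter on low counts between animals. Brain cells of female mice were sorted for CD11b, a surface protein of myeloid cells, and sequenced in 4 pooled droplet libraries. All mice, controls included, carried GFP-M, the inducible Cre allele Cx3cr1-CreERT2 (written fl/fl in the labels) and the reporter Rosa26-tdTomato (tg/tg). The conditions were control young, control old, repopulated young and repopulated old, at 3 months (young) and 12 months (old). Repopulated mice ate BLZ-945, which blocks the CSF1 receptor and so depletes microglia, at 200 mg/kg per day in peanut butter for 14 or 21 days and then had 7 days without it, and controls ate peanut butter. Each library pooled 4 animals, 1 of each condition, marked by 4 hashtag antibodies (HTO1 to HTO4). No source used here says which hashtag marked which condition, nor whether a hashtag marked the same condition in every library, so hashtags were compared by number only.

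Microglia are the resident macrophages of the brain. They arise from the yolk sac, depend on the CSF1 receptor and on TGF-beta signals, and carry a set of transcripts that other macrophages largely lack. Tmem119 is a transmembrane protein used as a microglia marker. Selplg (PSGL-1) is the ligand of P-selectin, Ecscr is a surface protein first known from endothelial cells, Upk1b is a tetraspanin of the urothelium, Slc2a5 (GLUT5) carries fructose and Fcrls is an Fc receptor-like scavenger receptor. Crybb1 is a beta crystallin of the lens, while Olfml3 and Sparc are secreted proteins of the extracellular matrix.

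Hashtag calls gave 14 animals with at least 100 microglia of the 16 pooled, since HTO3 of library 1 and HTO2 of library 4 were nearly empty, at 0.283% and 0.330% of the UMIs of all hashtags there. The HTO1 and HTO4 groups therefore had 4 animals, and HTO2 (libraries 1 to 3) and HTO3 (libraries 2 to 4) had 3. The libraries held 19440846 to 114306090 gene UMIs and 2606 to 9699 passing cells, and microglia made up 91.1% to 94.3% of the passing cells. Median depth per microglia was 3924 to 11288 UMIs in the HTO1 animals, 3837.5 to 6376.5 in HTO2, 6658.5 to 11786 in HTO3 and 8929 to 39719 in HTO4. Libraries 1 and 2 shared 159 passing barcodes and the other pairs 4 to 21. Microglia were defined by complement C1q and the near absence of border macrophage transcripts, so none of the 9 genes chose the cells. All 9 were found in these cells, with means over the 4 libraries from 50.3 UMIs per 1000000 gene UMIs (CPM) for Upk1b to 2489 CPM for Sparc.

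Positions are given on GRCm38 by GENCODE M21. Tmem119 (chromosome 5, 113793729 to 113800516) and Selplg (chromosome 5, 113818536 to 113832644) are neighbours on the minus strand with 18019 bases between them. Crybb1 lies on the same chromosome at 112255815 to 112269585. Fcrls (87250758 to 87263738) and Olfml3 (103722222 to 103738001) are both on chromosome 3. Sparc is on chromosome 11 (55394500 to 55423183), Upk1b on chromosome 16 (38773184 to 38800328), and Slc2a5 on chromosome 4 (150119283 to 150144169).

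For 5 of the 9 genes the RefSeq table (GRCm38.p6) held a promoter, and the 250 bases before the start are shown because these 5 include genes that were lower and genes that were not in the animals compared below. Each is written in the direction of transcription. Capitals mark the hexamers GAGGAA (the core bound by PU.1), CAGACA (the core of SMAD boxes) and TATAAA (which TBP binds), searched on both strands.
Crybb1, chr5:112255570-112255819, plus strand: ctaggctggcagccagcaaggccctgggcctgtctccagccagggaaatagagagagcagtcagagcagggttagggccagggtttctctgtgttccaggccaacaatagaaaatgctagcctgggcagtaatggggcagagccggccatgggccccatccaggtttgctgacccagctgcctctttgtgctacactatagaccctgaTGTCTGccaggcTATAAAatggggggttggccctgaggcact
Slc2a5, chr4:150119094-150119343, plus strand: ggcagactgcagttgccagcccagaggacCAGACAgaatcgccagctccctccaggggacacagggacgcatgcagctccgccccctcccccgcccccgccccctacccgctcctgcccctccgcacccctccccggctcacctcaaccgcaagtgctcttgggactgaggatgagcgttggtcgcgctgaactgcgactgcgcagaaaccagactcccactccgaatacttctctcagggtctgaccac
Fcrls, chr3:87263525-87263774, minus strand: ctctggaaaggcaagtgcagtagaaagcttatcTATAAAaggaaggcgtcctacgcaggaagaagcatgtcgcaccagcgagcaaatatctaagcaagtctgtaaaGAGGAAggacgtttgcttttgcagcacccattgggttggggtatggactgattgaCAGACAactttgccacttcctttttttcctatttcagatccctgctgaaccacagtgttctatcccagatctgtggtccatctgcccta
Olfml3, chr3:103738002-103738251, minus strand: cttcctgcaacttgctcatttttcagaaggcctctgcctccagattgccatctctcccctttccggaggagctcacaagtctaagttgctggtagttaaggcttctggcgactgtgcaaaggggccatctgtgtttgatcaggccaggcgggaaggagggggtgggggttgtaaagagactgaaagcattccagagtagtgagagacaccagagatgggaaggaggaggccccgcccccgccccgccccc
Sparc, chr11:55420081-55420330, minus strand: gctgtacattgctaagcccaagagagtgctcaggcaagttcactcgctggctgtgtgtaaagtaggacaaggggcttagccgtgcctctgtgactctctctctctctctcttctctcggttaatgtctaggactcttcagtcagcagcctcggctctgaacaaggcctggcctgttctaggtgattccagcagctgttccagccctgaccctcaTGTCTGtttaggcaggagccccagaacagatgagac
The hexamer CAGACA stood in 4 of these 5 promoters and in 17.1% of the 32851 RefSeq promoters of the same length. The Olfml3 promoter held none of the 3 hexamers. GAGGAA stood in the Fcrls promoter alone among the 5, against 23.3% of all promoters. The Crybb1 promoter had TATAAA at position -30 relative to its start and the Fcrls promoter at -217, and 12.4% of all promoters held it. The MEF2 motif and the AP-1 motif TGACTCA, searched on both strands, were in none of the 5, against 0.103% and 4.46% of all. A match of letters says nothing of binding, and the RefSeq starts of Crybb1, Slc2a5, Fcrls and Sparc lie inside the GENCODE spans of these genes.

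The first comparison asked which of the 9 genes fell together and which held across animals. Levels are given as CPM normalised by TMM, a scaling that assumes most genes do not change, and the values for each hashtag follow the order of the libraries. None of the 9 genes was called between HTO1 and HTO2 animals. In HTO4 animals Upk1b, Crybb1, Ecscr, Slc2a5, Selplg and Tmem119 were lower than in HTO1 animals in 4 of 4 libraries, by 15.1-fold down to 2.30-fold. Olfml3 was higher by 1.25-fold on this scale, and Fcrls and Sparc did not pass the test. Of the 9 genes, 7 were called, 6 lower and 1 higher, where 60.2% of all 12505 genes tested were called and 29.7% were called lower. Calls were thus common in this contrast, and whether the 9 differ from all genes in this was not tested. The median log2 fold change of the 9 was -1.42, beside -0.02 over all genes tested.

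**Figure D1:**
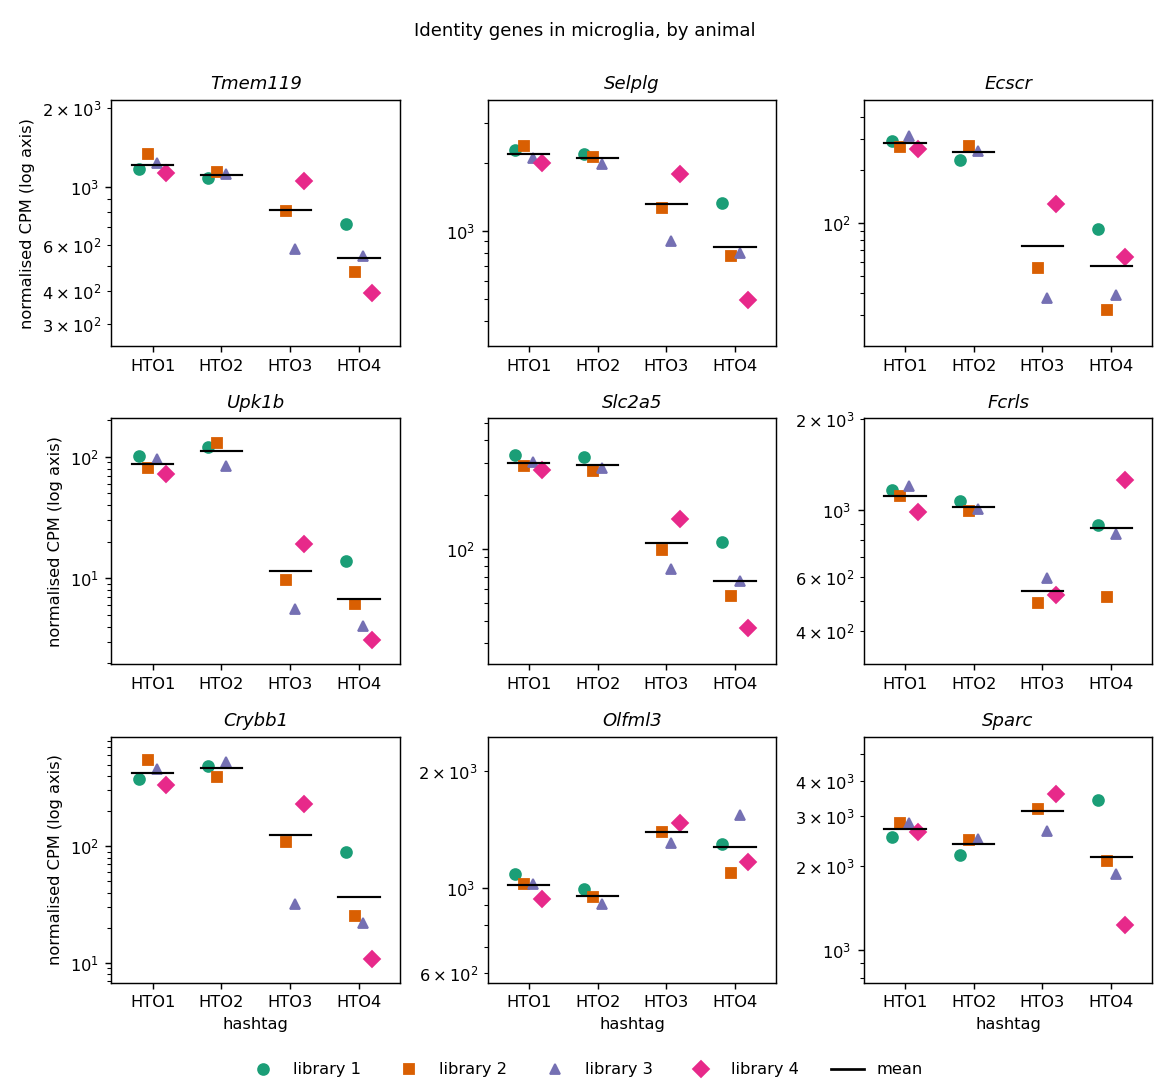
Normalised CPM (log axis) of the 9 genes in the microglia of each animal, by hashtag, with libraries as symbols and the mean of each hashtag as a bar. HTO1 and HTO2 animals lie close together for every gene, Upk1b and Crybb1 are lowest in HTO4 animals, and Olfml3 and Sparc do not follow them.

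Among the surface proteins, Tmem119 stood at 1171, 1335, 1229 and 1124 normalised CPM in the HTO1 animals. It was 723, 474, 544 and 394 in the HTO4 animals. No HTO4 value reached the lowest HTO1 value, and groups that do not overlap, in either direction, made up 40.6% of all genes in this contrast. The log2 fold change was -1.20 ± 0.21 (SE; edgeR quasi-likelihood test, adjusted p = 0.00171, n = 4 and 4). Selplg, its neighbour on the chromosome, was 2274, 2366, 2109 and 1998 in HTO1 animals and 1332, 770, 799 and 492 in HTO4 animals. These groups did not overlap either, and the log2 fold change was -1.42 ± 0.26 (edgeR, adjusted p = 0.00206).

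Ecscr (chromosome 18, 35713086 to 35722356, GRCm38) stood at 291, 268, 310 and 264 normalised CPM in HTO1 animals and at 92.7, 32.0, 39.0 and 63.8 in HTO4 animals, a log2 fold change of -2.44 ± 0.35 (edgeR, adjusted p = 0.000737). Upk1b was the least abundant of the 9, at 101, 81.4, 96.6 and 71.6 in HTO1 animals. In HTO4 animals it was 13.9, 6.14, 4.06 and 3.13, from 66 to 91 UMIs per animal. Its log2 fold change of -3.91 ± 0.45 (edgeR, adjusted p = 0.000235) was the lowest of the 9. The fructose carrier Slc2a5 stood at 331, 290, 304 and 273 in HTO1 animals and at 109, 55.0, 65.9 and 36.5 in HTO4 animals. Its groups did not overlap, and the log2 fold change was -2.24 ± 0.27 (edgeR, adjusted p = 0.000327).

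Crybb1, the crystallin, stood at 375, 542, 455 and 331 normalised CPM in the HTO1 animals. The HTO4 animals had 89.4 in library 1, 25.2 in library 2, 22.0 in library 3 and 10.9 in library 4. The log2 fold change was -3.84 ± 0.71 (edgeR, adjusted p = 0.00216), 14.3-fold lower.

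Fcrls did not follow the other surface proteins. It was 1166, 1115, 1204 and 986 normalised CPM in HTO1 animals and 894, 518, 837 and 1257 in HTO4 animals. On the TMM scale the HTO4 animal of library 4 had the highest Fcrls of all 14 animals, while its Tmem119, Selplg, Slc2a5, Crybb1 and Upk1b were the lowest. Per cell its Tmem119 (12.9 UMIs) was not the lowest, and by total UMIs its Fcrls (1001 CPM) was below every HTO1 and HTO2 animal. The log2 fold change of -0.39 ± 0.20 did not pass (edgeR, adjusted p = 0.111). Without that animal it was -0.64 (adjusted p = 0.00955).

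Of the secreted proteins, Olfml3 stood at 1083, 1020, 1021 and 931 normalised CPM in HTO1 animals and at 1295, 1093, 1537 and 1161 in HTO4 animals. Every HTO4 value was above every HTO1 value, with a log2 fold change of 0.32 ± 0.11 (edgeR, adjusted p = 0.0322). The sign turned to -0.22 (adjusted p = 0.125) when sums were scaled by total UMIs. Without library 2, 3 or 4 the value stayed positive at 0.23 to 0.40 and lost the call (adjusted p = 0.0781 to 0.127). Sparc was 2531, 2844, 2836 and 2633 in HTO1 animals. In HTO4 animals it was 3422 in library 1, 2083 in library 2, 1872 in library 3 and 1229 in library 4, values that lie on both sides of HTO1. The log2 fold change of -0.39 ± 0.24 did not pass (edgeR, adjusted p = 0.181), and without library 1 it was -0.67 (adjusted p = 0.0151).

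Which of these genes fell depended on the scaling. The HTO4 microglia were deeper, and their TMM factors were 0.772 to 0.902 against 1.16 to 1.25 in HTO1. Scaling by total UMIs moved the median of all genes to -0.57 and scaling per cell moved it to 1.01. Of all genes called, 3820 were higher and 3713 lower by TMM, 1804 and 6983 by total UMIs, and 8067 and 486 per cell. Slc2a5, Crybb1, Ecscr and Upk1b were called lower under all 3 scalings. Per cell, the log2 fold changes were -1.26 for Slc2a5, -2.87 for Crybb1, -1.43 for Ecscr and -2.91 for Upk1b (edgeR, adjusted p = 7.66e-05 to 0.00121). Tmem119 and Selplg were not called per cell, at -0.21 (adjusted p = 0.384) and -0.44 (adjusted p = 0.0848). A HTO4 cell held 5.87 to 12.9 Tmem119 UMIs on average and a HTO1 cell 6.40 to 17.3. Per cell, Olfml3 rose by 1.35 and Sparc by 0.58 (adjusted p = 0.00159 and 0.0306), while by total UMIs Sparc fell by 0.92 and Fcrls by 0.94 on the log2 scale (adjusted p = 0.0116 and 0.00133). Relative to the median of all genes, Olfml3 stood above it under each scaling. Sparc and Fcrls, neither of them called by TMM, stood below it under each.

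**Figure D2:**
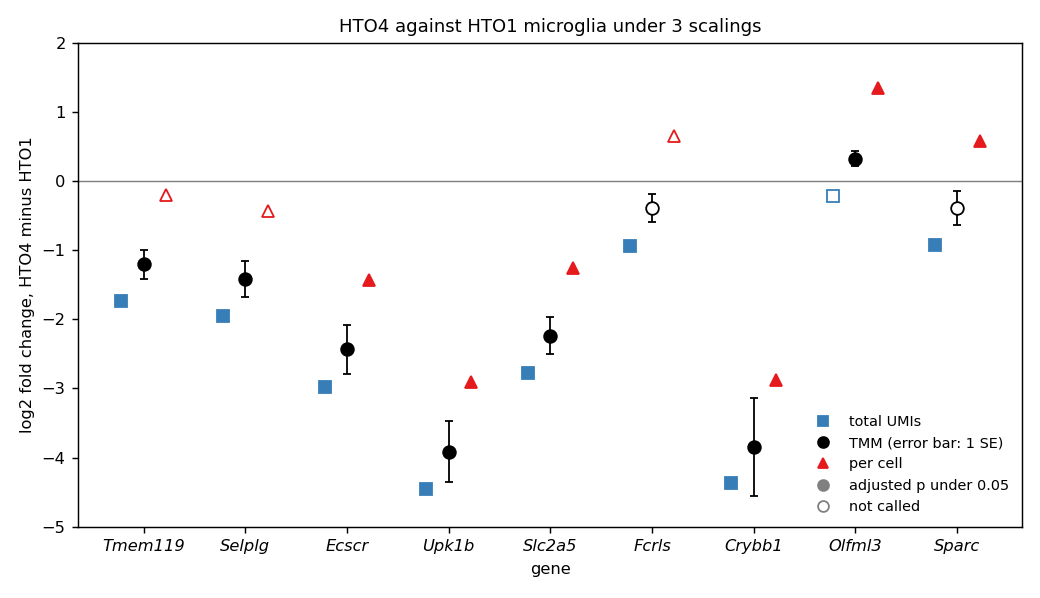
Log2 fold change of HTO4 minus HTO1 microglia for each gene under 3 scalings (squares, total UMIs; circles, TMM with 1 SE; triangles, per cell); filled symbols passed an adjusted p of 0.05. Ecscr, Upk1b, Slc2a5 and Crybb1 are filled and below 0 under each scaling, and Fcrls, Olfml3 and Sparc cross 0.

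The HTO3 animals were lower than HTO1 animals in 4 of the 9 genes, and Olfml3 was higher, where 14.4% of all genes were called in this contrast and 5.54% were called lower. Upk1b was 9.72, 5.64 and 19.3 normalised CPM in libraries 2 to 4, a log2 fold change of -2.81 ± 0.48 (edgeR, adjusted p = 0.00493). Ecscr, at 55.8, 37.4 and 128, changed by -2.03 ± 0.39 (edgeR, adjusted p = 0.00926). Slc2a5, at 98.0, 77.0 and 147, changed by -1.35 ± 0.29 (edgeR, adjusted p = 0.0155). All 3 genes lay below every HTO1 animal in each HTO3 animal. Groups that do not overlap, in either direction, made up 35.5% of all genes in this contrast, which shares its HTO1 animals with the one above.

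Fcrls was 495, 598 and 525 in HTO3 animals, below every HTO1 and HTO2 value, with a log2 fold change of -1.04 ± 0.22 (edgeR, adjusted p = 0.0141). Olfml3 was 1394, 1305 and 1473 and changed by 0.48 ± 0.13 (edgeR, adjusted p = 0.0315), which became 0.06 (adjusted p = 0.715) by total UMIs. Without library 2 or library 3, none of these 5 calls against HTO1 was kept (adjusted p = 0.0754 to 0.276), with log2 fold changes of the same sign, and the Olfml3 call was also lost without library 4 (adjusted p = 0.120). By total UMIs, where the median of all genes was -0.44, 630 genes were higher and 4851 lower, against 1112 and 693 by TMM. Per cell, 448 were higher and 211 lower, and Fcrls and Olfml3 were not called (adjusted p = 0.260 and 0.259).

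The other 4 genes did not pass the test between HTO3 and HTO1 by TMM. Crybb1 was 108 and 32.2 in libraries 2 and 3 and 231 in library 4, and changed by -1.71 ± 0.74 (edgeR, adjusted p = 0.155). Tmem119 was 809, 578 and 1052, with a change of -0.54 ± 0.23 (edgeR, adjusted p = 0.148). Selplg was 1255, 903 and 1787, with a change of -0.64 ± 0.28 (edgeR, adjusted p = 0.162). Without library 4, Tmem119, Crybb1 and Selplg were called lower at -0.82, -2.67 and -0.97 (adjusted p = 0.0375, 0.0369 and 0.0221). By total UMIs Tmem119 (-0.96) and Selplg (-1.06) were called lower (adjusted p = 0.0159 and 0.0227), and with cells thinned to 2000 UMIs Crybb1 was (-1.73, adjusted p = 0.0474). Sparc, at 3170, 2647 and 3597, did not pass (0.29 ± 0.26, edgeR, adjusted p = 0.487), and its sign turned to -0.14 by total UMIs.

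Against HTO2 the same 5 genes were called for HTO3 (6.93% of all genes) and the same 7 for HTO4 (48.6% of all genes), with the signs they had against HTO1. The 5 calls for HTO3 were all lost without library 2 or library 3 (adjusted p = 0.133 to 0.511), and Fcrls, Olfml3 and Slc2a5 lost theirs without library 1 (adjusted p = 0.0858, 0.0630 and 0.0511) and per cell (adjusted p = 0.460, 0.335 and 0.0550). Olfml3 was also not called without library 4 (adjusted p = 0.0675) or by total UMIs (adjusted p = 0.244). Of the 7 calls for HTO4, all but that of Upk1b (adjusted p = 0.0360) were lost without library 2 (adjusted p = 0.0526 to 0.121). Olfml3 also lost its call without library 3 (adjusted p = 0.125) and by total UMIs, where it was -0.0429 (adjusted p = 0.789), and Tmem119 and Selplg lost theirs per cell (adjusted p = 0.759 and 0.209). HTO2 animals had, for example, 486, 390 and 531 normalised CPM of Crybb1, 120, 129 and 83.3 of Upk1b, and 993, 946 and 908 of Olfml3. None of the 12505 genes was called by edgeR between HTO2 and HTO1, where 413 had an unadjusted p below 0.05, DESeq2 called 49 and an edgeR fit of only these animals called 310. The 9 genes moved by -0.25 to 0.28 on the log2 scale in that contrast. No gene was called by edgeR between HTO4 and HTO3 on the TMM scale either, where 4128 had an unadjusted p below 0.05 and DESeq2 called 256. There, Crybb1 differed by -2.13 ± 0.79 and Fcrls by 0.65 ± 0.22 (edgeR, adjusted p = 0.141 for both), and without library 1 edgeR called 4384 genes. Per cell, edgeR called 6140 genes higher and 22 lower in HTO4 than in HTO3, with a median of 0.85 over all genes, among them Fcrls (1.46, adjusted p = 0.0378). Over all hashtags at once, 8 of the 9 genes were called, all but Sparc (edgeR F test, adjusted p = 0.196), where 47.5% of all genes were.

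The animals differed in more than these genes. Cells with high cell cycle transcripts made up 0.392%, 23.2%, 45.8% and 42.6% of the microglia of the HTO4 animals in libraries 1 to 4, 2.60%, 18.8% and 0.416% in the HTO3 animals of libraries 2 to 4, and at most 1.22% in HTO1 and HTO2 animals. Cells with high disease-associated transcripts reached 37.9% in the HTO4 animal of library 4, and cells with high interferon transcripts reached 24.3% in the HTO3 animal of library 2. With these cells left out, the 7 calls between HTO4 and HTO1 remained, and the log2 fold changes were -3.51 for Upk1b, -3.53 for Crybb1, -1.97 for Slc2a5 and 0.45 for Olfml3.

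Markers of other cell types within the microglia were summed for each animal, as normalised CPM, and a few genes led most of the sums. The sum of 8 border macrophage markers was 11.0 to 44.7 in HTO1 animals, 11.7 to 254 in HTO3 animals and 81.8 to 328 in HTO4 animals, with at most 2 of the 8 at 0 in any animal. In HTO4 animals Pf4, Ms4a7 and Clec12a led it, while Cd163 held at most 5 UMIs and Lyve1 at most 3 in any of them. Since Ecscr and Sparc are known from vessels, 7 endothelial markers were summed. They stood at 22.7 to 30.1 in HTO1 animals, at 5.28, 2.85 and 7.20 in HTO3 animals and at 8.83, 17.6, 9.84 and 64.8 in HTO4 animals, with up to 5 of the 7 at 0 in an animal. Pecam1, an adhesion molecule that blood cells carry too, made up 72.2% to 99.5% of the sum in HTO1 animals. Flt1, a VEGF receptor, moved the other way and was higher in HTO4 than in HTO1 in 4 of 4 libraries, with 1821 of the 1883 UMIs in the HTO4 animal of library 4. Cldn5, the endothelial claudin, held 0 to 1 UMI in all animals but the HTO1 and HTO4 animals of library 2, with 14 and 43.

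The sum of 5 pericyte markers was 0.107 to 0.877 in HTO1 animals, 1.09 to 23.9 in HTO3 animals and 1.68, 33.4, 81.5 and 191 in HTO4 animals, with up to 4 of the 5 at 0. Cspg4 (NG2) made up 94.4% to 99.9% of it in the HTO4 animals of libraries 2 to 4, where Pdgfrb held 0 to 2 UMIs. The sum of 7 astrocyte markers was 174 to 248 in HTO1, 35.5 to 140 in HTO3 and 15.6 to 82.2 in HTO4 animals, with up to 2 of the 7 at 0. The glutamate transporter Slc1a3 made up 94.1% to 97.8% of it in HTO1 animals and was lower in every HTO3 and HTO4 animal than in every HTO1 animal, while Aqp4 and Gfap held 0 to 17 UMIs in any animal. The sum of 5 B cell markers was 295 to 361 in HTO1 animals, 193, 68.4 and 265 in HTO3 animals and 1155, 130, 32.7 and 262 in HTO4 animals, with up to 3 of the 5 at 0. Ighm made up 76.7% to 91.1% of it in HTO1 animals, and Igkc 69.9% and 77.1% in the HTO4 animals of libraries 1 and 4. The part of these genes in the results was not tested.

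The share of microglia with at least 1 UMI of a gene was compared after each cell was thinned to 2000 UMIs. Crybb1 was found in 57.4% ± 5.44 (SD, n = 4) of HTO1 microglia and 5.94% ± 4.77 (SD, n = 4) of HTO4 microglia. Slc2a5 was found in 48.6% ± 4.45 and 10.6% ± 4.79, and Ecscr in 48.4% ± 2.71 and 9.17% ± 4.40. Upk1b went from 17.8% ± 2.76 to 1.58% ± 0.831. Selplg went from 98.4% ± 0.699 to 69.3% ± 12.8 and Tmem119 from 92.1% ± 0.945 to 55.2% ± 9.06. Fcrls went from 85.1% ± 2.80 to 66.0% ± 13.7. Olfml3 was found in 88.0% ± 1.28 and 81.4% ± 5.61, and Sparc in 98.8% ± 0.342 and 84.2% ± 11.1. Thinning puts cells on the scale of total UMIs, where the median log2 fold change of all genes was -0.57. Unthinned, with deeper HTO4 cells, the difference was smaller for abundant genes: Tmem119 was found in 98.3% of HTO1 and 93.9% of HTO4 microglia.

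T cells of the same libraries served as cells that should lack the genes, with Selplg as the exception, since T cells carry it. Library 1 held only 4 T cells, and the values that follow are from the 28 to 82 T cells of libraries 2 to 4, with a median depth of 3511.5 to 4402.5 UMIs. Thinned, Tmem119 was found in 3.85% to 8.89% of them, Crybb1 in 1.27% to 7.69% and Ecscr in 0% to 2.53%. Upk1b was found in 0 of 45, 0 of 26 and 0 of 79, which allows a share of up to 7.87%, 13.2% and 4.56% (exact binomial 95% intervals). In HTO4 microglia of libraries 2 to 4 the share was 0.910% to 1.40% for Upk1b and 2.28% to 4.44% for Crybb1. With this number of T cells neither share could be told from theirs. In library 4, Slc2a5 (5.46%) and Ecscr (10.5%) of HTO4 microglia lay above the upper limits of the T cells, 4.56% and 8.85%. In libraries 2 and 3 they did not: Slc2a5 (9.11% and 10.8%) was below the limits of 11.8% and 13.2%, and Ecscr (4.78% and 6.69%) below 7.87% and 13.2%.

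**Figure D3:**
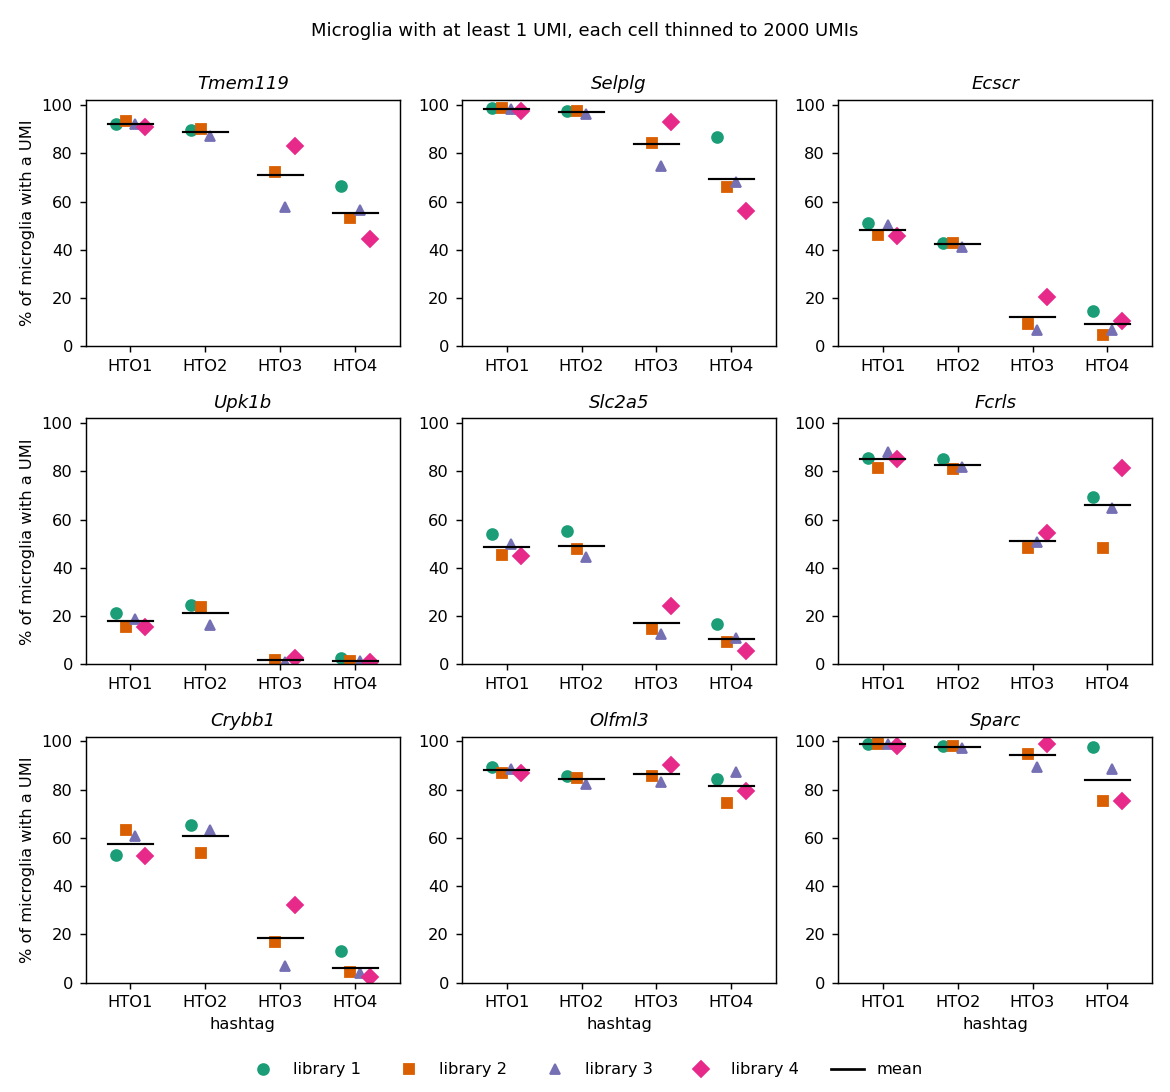
Percent of microglia with at least 1 UMI of each gene, each cell thinned to 2000 UMIs, by animal and hashtag, with the mean as a bar. Olfml3 stays between 74.6% and 90.4% in all 14 animals, while Crybb1 goes from 65.2% to 2.28% and Upk1b from 24.4% to 0.882%.

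Across the 14 animals the 9 genes fell into patterns that differed in likeness. Pearson r was taken on log2(CPM + 10), with CPM by total UMIs and not by TMM, centred within library. It is a description, because animals share libraries, depth and hashtag. Tmem119, Selplg, Crybb1, Slc2a5, Ecscr and Upk1b rose and fell together, with r of 0.930 to 0.997 for all 15 pairs. Selplg and Tmem119, the neighbours, had 0.997. Genes outside the 9 reached r as high, such as Rbm22 with Slc2a5 (0.997), so such values are not particular to these 6. Sparc had r of 0.622 to 0.854 with these 6, Fcrls 0.651 to 0.854, and Olfml3 0.243 to 0.517. Between Fcrls and Olfml3 r was -0.023. On the TMM scale, where r was not taken, Olfml3 was higher and these 6 genes were lower in HTO4 than in HTO1 animals.

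By the rule of the highest r among 7953 genes, Tmem119 was most like Selplg, Pag1 and Plxdc2 (0.996 to 0.997), and for Selplg they included Tmem119 (0.997) and 0610040J01Rik (0.9965). Slc2a5 was most like Rbm22, Wasf2 and Cep68 (0.997), and Crybb1 most like Slc1a3, Gp9 and Elk4 (0.996 to 0.997). Ecscr was most like Selenos, Tspan4 and Hnmt (0.996 to 0.997), and Upk1b most like Cnrip1, Cdh23 and Gimap6 (0.996 to 0.997). For Fcrls the genes were Npl, Sar1b and Trappc3 (0.966 to 0.981), and for Sparc Unc93b1, Senp2 and Ctss (0.985 to 0.989). Olfml3 had the lowest likeness to any gene, with Gng10 at 0.827, Hspa1b at 0.809 and Ly6e at 0.795.

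The genes around Tmem119 and Selplg did not all move with them. Coro1c, an actin-binding coronin that lies 9791 bases beyond Selplg, had a log2 fold change of 1.63 ± 0.23 between HTO4 and HTO1 (edgeR, adjusted p = 0.000679) and was called higher under all 3 scalings. Sart3, on the other side of Tmem119, changed by 1.17 ± 0.23 (edgeR, adjusted p = 0.00287), also higher under all 3 scalings. Iscu, between Sart3 and Tmem119, changed by 0.24 ± 0.08 (adjusted p = 0.0353) and by -0.30 by total UMIs. The chemerin receptor Cmklr1 changed by -0.44 ± 0.15 (adjusted p = 0.0288) and by 0.58 per cell. Wscd2 did not pass the filter on low counts.

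Of 48 other homeostatic microglia genes, 47 were tested. Between HTO4 and HTO1, 32 were lower and 4 higher, with a median log2 fold change of -0.71, where 60.2% of all genes were called, 29.7% were called lower and the median of all genes was -0.02. Those with the lowest values were the adhesion receptor Adgrg1 (-3.46 ± 0.82), Lag3 (-2.82 ± 0.94) and the purinergic receptor P2ry12 (-2.42 ± 0.42), with adjusted p of 0.00639, 0.0270 and 0.00170 (edgeR). The called genes with the highest values were Gpr84 (1.34 ± 0.22), Ctsd (0.69 ± 0.19) and Tyrobp (0.67 ± 0.12), with adjusted p of 0.00131, 0.0115 and 0.00163 (edgeR). Between HTO3 and HTO1, 4 were lower, with Nav3 (-1.85), Cd164 (-1.31) and Golm1 (-0.71) lowest, and Gpr84 (0.86), Tyrobp (0.82) and Aif1 (0.58) were higher, a count near the share of all genes called in this contrast (14.4%, with 5.54% lower). Against HTO2, 2 were lower and 2 higher in HTO3, a count near the share of all genes called there (6.93%). In HTO4, 27 were lower and 3 higher against HTO2, where 48.6% of all genes were called. None was called between HTO2 and HTO1 or between HTO4 and HTO3. These counts are on the TMM scale.

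The next comparison asked how the 9 genes differ between microglia and border macrophages, the macrophages of the meninges and vessels. Cells with C1q and high Mrc1, Cd163 and F13a1 numbered 45, 111, 170 and 191 in libraries 1 to 4. In these cells 7 of the 9 genes were lower than in microglia, where 16% of all genes were called and 6.68% were called lower. Their median log2 fold change was -1.27 for the 9, beside -0.02 over all 11644 genes tested. Of all genes called, 1083 were higher and 778 lower by TMM. Per cell, where the median of all genes was -0.34, 699 were higher and 2452 lower. Sparc stood at 471, 208, 1209 and 1188 normalised CPM in the border macrophage cells and at 2642, 2590, 2372 and 2410 in microglia, a log2 fold change of -1.96 ± 0.35 (edgeR, adjusted p = 0.00143, n = 4 libraries). Olfml3 was 203, 210, 440 and 511 against 1107, 1104, 1186 and 1161, a change of -1.82 ± 0.21 (edgeR, adjusted p = 3.21e-05). These secreted proteins had the lowest log2 fold changes of the 9 genes in this comparison.

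Tmem119 was 191, 151, 462 and 524 in the border macrophage cells and 1005, 918, 819 and 836 in microglia (-1.54 ± 0.28, edgeR, adjusted p = 0.00177). Selplg changed by -1.34 ± 0.28, Ecscr by -1.27 ± 0.33, Slc2a5 by -1.16 ± 0.31 and Crybb1 by -0.61 ± 0.17 (edgeR, adjusted p = 0.00438, 0.0167, 0.0209 and 0.0252). Crybb1 lost its call without library 1 or 2, and Slc2a5 without library 2. Upk1b was lower in 4 of 4 libraries but did not pass (-0.77 ± 0.27, edgeR, adjusted p = 0.0661), and without library 4 it was called at -1.19 (adjusted p = 0.0114). Fcrls did not pass the test. It stood at 1029, 1063, 962 and 901 in the border macrophage cells and at 1049, 777, 870 and 907 in microglia (0.14 ± 0.15, edgeR, adjusted p = 0.615). The 8 genes other than Fcrls were nearer to the microglia level in libraries 3 and 4 than in libraries 1 and 2. With the threshold for Mrc1, Cd163 and F13a1 raised from 0.1% to 0.3% of UMIs, Sparc was -3.20, Olfml3 -2.61 and Tmem119 -2.54. Cells with marker levels between those of the classes numbered only 19 to 155 per library. They had 694, 459, 767 and 647 CPM of Tmem119 in libraries 1 to 4. Border macrophage cells of the same libraries had 197, 138, 455 and 549 CPM and microglia 1124, 903, 768 and 824 CPM, so that the cells in between lay at the microglia level in library 3 and between the classes in the other 3 libraries.

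**Figure D4:**
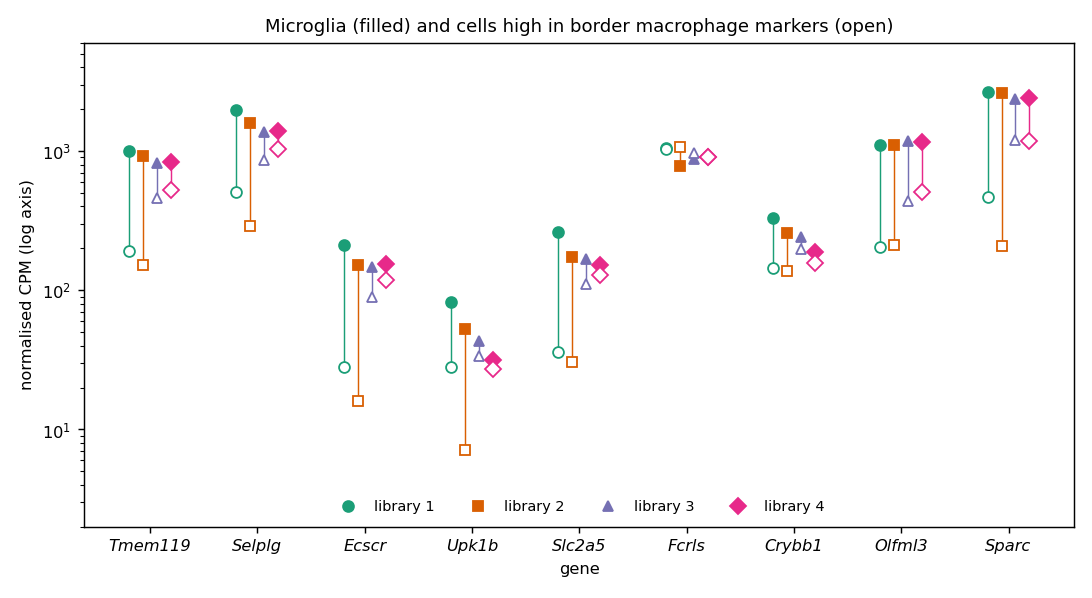
Normalised CPM (log axis) of each gene in microglia (filled) and in cells with high border macrophage markers (open), 1 line per library. Fcrls overlaps between the classes, and the other 8 genes are lower in the open symbols in every library.

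Microglia with high transcripts of 3 programmes were compared with the other microglia of the same animal. In cells with high cell cycle transcripts (6 animals, 1450 cells, with 229 cells near the threshold), 5 of the 9 genes were lower, where 31.2% of all genes were called and 15.3% were called lower. Crybb1 changed by -1.14 ± 0.23, Slc2a5 by -0.89 ± 0.20, Ecscr by -0.86 ± 0.19, Sparc by -0.64 ± 0.16 and Fcrls by -0.32 ± 0.09 (edgeR, adjusted p = 0.00416 to 0.0203), each lower in 6 of 6 animals. These cells were deeper, and per cell, where the median of all genes was 0.61, Fcrls was called higher at 0.41 (adjusted p = 0.0199) and the other 4 were not called (adjusted p = 0.0552 to 0.649), while Tmem119 (0.39) and Selplg (0.38) were called higher too (adjusted p = 0.0304 and 0.0439). These 3 values lay below that median. Of all genes called, 1736 were higher and 1680 lower by TMM, and 7624 and 91 per cell. The Fcrls call was lost by total UMIs (-0.26, adjusted p = 0.0536) and with cells thinned to 2000 UMIs (-0.28, adjusted p = 0.0907). Thinned, Tmem119 (-0.43), Olfml3 (-0.42) and Selplg (-0.42) were called lower (adjusted p = 0.0420, 0.0316 and 0.0186). Without library 3 the calls of Crybb1, Ecscr, Sparc and Fcrls were lost (adjusted p = 0.0514, 0.0733, 0.0504 and 0.301), and without library 2 that of Sparc (adjusted p = 0.130). Without library 4 Upk1b was called lower (-0.76, edgeR, adjusted p = 0.0276). Of the other homeostatic genes, 35 of 47 were lower and none higher in these cells by TMM, the scale on which they were counted.

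In cells with high interferon transcripts (11 animals, 926 cells, with 657 cells near the threshold on either side), Fcrls was lower in 11 of 11 animals. Its level ran from 322 to 825 normalised CPM in these cells and from 505 to 1192 in the others, a log2 fold change of -0.52 ± 0.07 (edgeR, adjusted p = 1.08e-05). Upk1b (-0.59 ± 0.16) and Ecscr (-0.39 ± 0.09) were also lower (edgeR, adjusted p = 0.0200 and 0.00510), where 8.17% of all genes were called and 2.58% were called lower. Without library 2 the Ecscr call was lost (-0.30, adjusted p = 0.206), and the Upk1b call was lost without library 1 or 4 (adjusted p = 0.140 and 0.0617) and with cells thinned (-0.30, adjusted p = 0.701). Crybb1 (0.01 ± 0.11), Olfml3 (-0.11 ± 0.06), Sparc (-0.12 ± 0.07), Selplg (-0.10 ± 0.06), Tmem119 (-0.13 ± 0.06) and Slc2a5 (-0.29 ± 0.10) did not pass on the TMM scale (edgeR, adjusted p = 0.0913 to 0.997). Slc2a5 was called lower without library 3 (-0.38, adjusted p = 0.0203) and by total UMIs (-0.34, adjusted p = 0.0398). Per cell, where the median of all genes was -0.28, Tmem119, Olfml3, Sparc, Slc2a5 and Selplg were called lower, at -0.48 for Slc2a5 and -0.28 to -0.32 for the others (adjusted p = 0.00144 to 0.0159). Of all genes called per cell, 357 were higher and 2392 lower, against 555 and 256 by TMM.

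In cells with high disease-associated transcripts (4 animals, 429 cells, of them 335 from the HTO4 animal of library 4, with 123 cells near the threshold), Crybb1, Upk1b and Slc2a5 were lower, with changes of -1.57 ± 0.31, -1.29 ± 0.28 and -1.29 ± 0.26 on the log2 scale (edgeR, adjusted p = 0.0152, 0.0259 and 0.0181), where 2.4% of all genes were called and 0.43% were called lower. Only 9 of the 10 listed genes of this programme were used here. Crybb1 was 17.1, 71.5, 11.8 and 4.38 normalised CPM in these cells and 21.4, 475, 18.3 and 12.1 in the other microglia of the same animals. Upk1b rested on 2 to 19 UMIs per animal in these cells and was lower in 3 of 4. Tmem119 was 196, 214, 314 and 261 against 407, 1003, 449 and 369 and did not pass (-1.03 ± 0.27, edgeR, adjusted p = 0.0669), though without library 3 or 4 it did (-0.73 and -1.28, adjusted p = 0.00158 and 0.0423). With cells thinned to 2000 UMIs Tmem119 (-1.32) and Selplg (-1.09) were called lower (adjusted p = 2.07e-05 and 0.000449), and per cell the Upk1b call was lost (-0.99, adjusted p = 0.0668). Fcrls was higher in 3 of 4 animals, with a change of 0.45 ± 0.21 that did not pass (edgeR, adjusted p = 0.405). Without library 3, Fcrls was called higher (0.58, adjusted p = 0.00317), and Selplg (-0.65) and Sparc (-0.58) were called lower (adjusted p = 0.00391 and 0.00176). Without library 2 the calls of Crybb1 and Slc2a5 were lost (adjusted p = 0.0691 and 0.134), and that of Upk1b without library 3 or 4 (adjusted p = 0.379 and 0.223). Without the replicate block for the animal, edgeR called none of the 11395 genes, and 641 had an unadjusted p below 0.05.

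**Figure D5:**
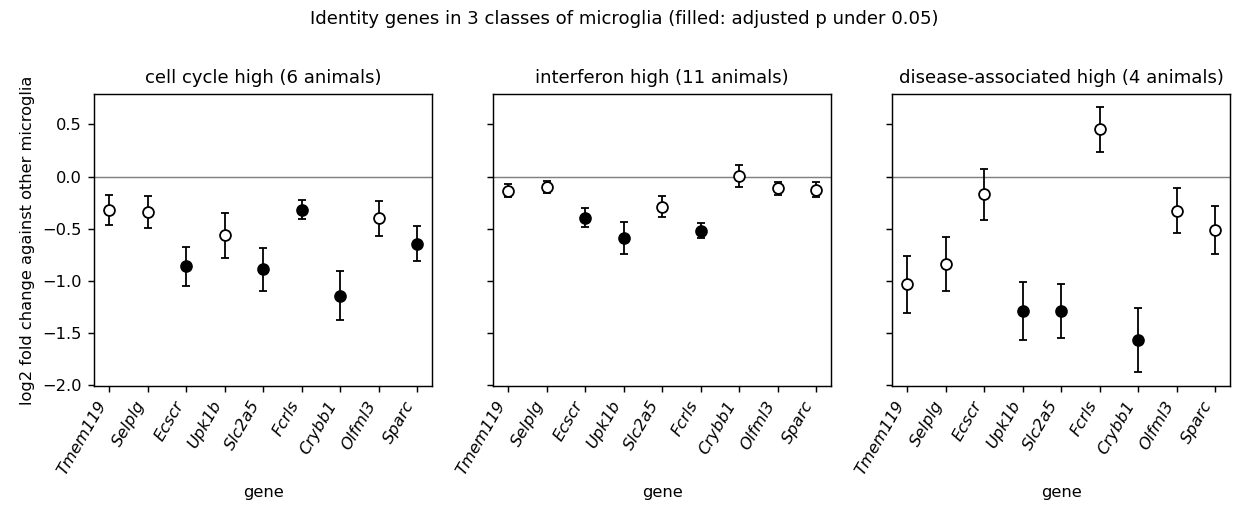
Log2 fold change (with 1 SE) of each gene in 3 classes of microglia against the other microglia of the same animals, by the TMM scale; filled circles passed an adjusted p of 0.05. Crybb1 and Slc2a5 are filled in the cell cycle and disease-associated panels, and Fcrls is filled in the cell cycle and interferon panels.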

How the data were processed

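Gene and hashtag libraries of 4 pools of CD11b-sorted brain cells were analysed from the deposited UMI counts per gene and cell, which the authors made with Cell Ranger (3.0.1 and mm10 per the submitters' processing notes, 4.0.0 per the file headers). Brains were kept in sucrose and frozen before dissociation, per the labels' protocols. Cells entered with 500 genes or more and mitochondrial UMIs of 10% or less. Hashtags were called with HTODemux (Seurat 5.3.0, quantile 0.99) after hashtags under 1% of hashtag UMIs were dropped, and called doublets were left out; doublets within a hashtag were not called. Microglia had C1qa and C1qb at 0.3% or more and Mrc1, Cd163 and F13a1 under 0.03% of gene UMIs. An animal is the microglia singlets of 1 hashtag in 1 library. Summed counts were tested with edgeR 4.0.16 (R 4.3.3; quasi-likelihood, TMM, filterByExpr, library and hashtag as terms; Benjamini-Hochberg at 0.05 over all genes tested). The library is the replicate block because its animals shared a droplet run. Classes with high transcripts of a programme were set at 0.1% (cell cycle and border macrophage markers) or 0.3% (interferon, disease-associated) of gene UMIs and tested within animals with at least 20 cells in both classes, or within libraries for border macrophages. SE is the log2 fold change divided by the root of the F statistic. The tests were also run on simulated counts with a small share of genes changed, equally up and down. That run cannot speak to contrasts where many genes were called.

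The members and lists were chosen with earlier results of these data known. Named genes are the 9 members, the 3 genes most like each by Pearson r, at most the 3 highest and 3 lowest called homeostatic genes per contrast, and the genes next to Tmem119 and Selplg. One gene that the rule names is not reported here. Intervals cover counting error only, and p-values measure the spread between these animals. Alternatives included DESeq2 1.42.0, other filters, cell rules and thresholds, thinning, no replicate block and each library left out; the scalings by total UMIs and per cell, leaving out the HTO4 animal of library 4 and leaving out shared barcodes were chosen after seeing the data.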

Additional observations from a re-analysis of the deposited data

Results flagged for a closer look

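Of 55 groups of 4 to 10 values checked for a single value far from the rest, 2 held one, where chance gives about 1 in 20, or 2.75. The log2 ratio of Olfml3 in cells with high cell cycle transcripts to other microglia was -1.53 in the HTO3 animal of library 2, far below the other 5 animals (-0.39 to 0.01). It rested on 28 high cells, in which Tmem119 was lower too, at 344 against 754 normalised CPM, and Fcrls was 380 against 452. The log2 ratio of Upk1b in cells with high disease-associated transcripts to other microglia was 0.14 in the HTO4 animal of library 2, where the other 3 animals had -1.47 to -1.21; it rested on 2 Upk1b UMIs in the high cells.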

How the results depend on the processing

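With each library left out in turn, edgeR called 434 to 7640 genes over all hashtags, 213 to 1949 between HTO3 and HTO1, 3076 to 8387 between HTO4 and HTO1, 0 to 1232 between HTO3 and HTO2 (0 without library 2, with 1359 at an unadjusted p below 0.05), 418 to 7340 between HTO4 and HTO2, and 0 to 4384 between HTO4 and HTO3. For the classes it called 1202 to 1858 (border macrophage), 973 to 3048 (cell cycle), 441 to 661 (interferon) and 78 to 388 (disease-associated). Cells thinned to 2000 UMIs gave 3789 over all hashtags, 1138 (HTO3 and HTO1), 4919 (HTO4 and HTO1), 3913 (HTO4 and HTO2), 1500 (cell cycle), 384 (interferon) and 139 (disease-associated). Scaling per cell gave 659 (HTO3 and HTO1), 262 (HTO3 and HTO2), 6162 (HTO4 and HTO3), 3151 (border macrophage), 7715 (cell cycle), 2749 (interferon) and 960 (disease-associated); scaling by total UMIs gave 5481 (HTO3 and HTO1), 2839 (HTO3 and HTO2) and 169 (disease-associated). DESeq2 called 49 (HTO2 and HTO1), 1435 (HTO3 and HTO2) and 256 (HTO4 and HTO3). Fits of only the 2 hashtags compared gave 310 (HTO2 and HTO1), 568 (HTO3 and HTO1) and 1285 (HTO4 and HTO2). Calling a hashtag at 80% of a cell's hashtag UMIs gave 743 (HTO3 and HTO1) and 480 (HTO3 and HTO2), a stricter microglia rule 1 (HTO2 and HTO1), no filter on low counts 1 (HTO4 and HTO3) and 510 (disease-associated), and a doubled threshold 484 (interferon). Without the replicate block the counts were 1527 (cell cycle), 345 (interferon) and 0 (disease-associated, with 641 at an unadjusted p below 0.05), against 7319 between HTO4 and HTO1 and 2106 between HTO3 and HTO1.

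Per cell, signs turned for Fcrls (0.65 against HTO1 and 0.69 against HTO2) and Sparc (0.58 and 0.82) in HTO4, for Fcrls in border macrophages (-0.20), for Tmem119 (0.39), Fcrls (0.41), Olfml3 (0.32), Sparc (0.0805), Selplg (0.38) and Upk1b (0.0796) in cell cycle cells, and for Ecscr in disease-associated cells (0.13; -0.45 to 0.0156 with a library left out). By total UMIs they turned for Sparc (-0.14) between HTO3 and HTO1 and for Olfml3 in HTO4 (-0.22 against HTO1, -0.0429 against HTO2). Sparc between HTO4 and HTO2 ran from -0.47 to 0.0187 with a library left out and was 0.0180 without the HTO4 animal of library 4. Crybb1 in interferon cells was -0.0219 with no filter, -0.25 without the replicate block, -0.11 at the doubled threshold, -0.15 thinned, -0.0512 by total UMIs, -0.15 per cell and -0.0574 to 0.0598 with a library left out. With cells weighing equally, mean levels were 1092 CPM for Tmem119, 339 for Crybb1 and 213 for Ecscr. The HTO4 minus HTO1 difference in cells with a UMI, in percentage points, was -4.43 (Tmem119), -3.79 (Fcrls), -0.66 (Olfml3), -29.5 (Slc2a5), -2.85 (Selplg) and -34.7 (Upk1b) unthinned, and -23.5 (Slc2a5), -34.0 (Crybb1), -41.5 (Selplg), -23.4 (Ecscr) and -8.96 (Upk1b) thinned to 1000 UMIs. The 45, 26 and 79 T cells with at least 2000 UMIs in libraries 2 to 4 set how far Upk1b and Crybb1 shares of HTO4 microglia could be told from theirs. Apart from what the scaling and the thinning change by construction, the cause was not tested.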
